A study of Mus musculus with 6 samples.

Results

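The Toll-like receptors were followed as a gene family in macrophages of the mouse peritoneal cavity. The family was taken as 10 named genes, Tlr1 to Tlr9 and Tlr13, out of 15469 genes in the deposited table, and all 10 had enough reads to be among the 11424 genes tested. Tlr5 met that filter only through the libraries in which it was higher. The other mouse receptor genes, Tlr11 and Tlr12, had at most 2 counts in any library and were not tested.

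Toll-like receptors are transmembrane proteins that recognise conserved molecules of microbes and of damaged cells. Some sit at the cell surface and bind lipoproteins, lipopolysaccharide or flagellin, while others are carried by the chaperone Unc93b1 to endosomes, where they bind RNA or DNA. Ligand binding recruits the adaptors Myd88 or Ticam1 and leads, through kinases, to NF-κB and interferon regulatory factors and the production of cytokines, a response for which macrophages are a main source.

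The cells came from the peritoneal lavage of mice described as CAIA mice, an abbreviation that the labels do not spell out, and cells with surface RELM-α, a secreted resistin-like protein, were sorted and plated in macrophage medium. The 3 libraries labelled KO came from PU.1-deleted cells, PU.1 being the myeloid transcription factor encoded by Spi1, and the 3 labelled WT came from control cells of the same kind. The stated purpose was the part PU.1 plays in ferroptosis, an iron-dependent cell death. The way and time of the deletion, the allele or agent, and the strain, sex and age of the mice are not given in the labels or files used here, and neither says whether the replicates were separate animals or cultures. The p-values therefore measure only the spread between these libraries, which may be technical.

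Each library held between 17280855 and 18632623 estimated counts. Spi1 did not separate the labels: libraries labelled KO had 277, 285 and 320 CPM (counts scaled to library size, replicates 1, 2 and 3 in this order throughout) and libraries labelled WT 323, 340.2 and 284 CPM (log2 difference -0.10, adjusted p = 0.561, edgeR quasi-likelihood test). Which stretch of Spi1 was removed is not given, so the label could not be checked at this gene, and every direction below is between libraries labelled KO and libraries labelled WT. All 7 macrophage markers were present in each library. Their summed levels were 34780 to 79296 TPM (length-scaled transcript abundance) in libraries labelled KO and 62914 to 66040 TPM in libraries labelled WT. Most of each sum was Lyz2, at 28821, 73415 and 71177 TPM against 60980, 58093 and 58017 TPM. Csf1r was the only 1 of the 7 with an adjusted p under 0.05. It was higher in libraries labelled KO, at 1411, 1154 and 1153 TPM against 622, 639 and 684 TPM (adjusted p = 0.0208, edgeR). Markers of large resident peritoneal macrophages were low, with sums of 3.03 to 8.59 TPM over the 6 libraries, and Timd4 did not exceed 1.38 TPM. KO replicate 1 stood apart from the other libraries, and the number of genes called at an adjusted p under 0.05 was 379 of 11424 (3.32%) with all libraries and 5793 of 11677 (49.6%) without it. Of those 379 genes, 258 were higher and 121 lower in libraries labelled KO, against 354 and 314 after adjusting for transcript GC content and length, and 779 and 116 on log2(TPM + 1). Results on the receptors are therefore given with and without that library.

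The receptors with the highest levels in these cells were 3 endosomal receptors of the kind that bind single-stranded RNA. Levels are compared between genes in TPM, which allows for transcript length, and given as the mean ± SD of 3 libraries. In libraries labelled WT, Tlr13, the mouse receptor for bacterial ribosomal RNA, led with 283 ± 57.1 TPM. It was followed by Tlr7, a receptor for single-stranded RNA, with 109 ± 25.7 TPM, and by its X-linked neighbour Tlr8 with 90.7 ± 22.4 TPM. The ranges of Tlr7 and Tlr8 overlapped, whereas Tlr13 lay above both in each of these libraries.

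A middle group held the surface receptors, at 28.0 ± 0.783 TPM for Tlr2, 21.8 ± 6.28 TPM for Tlr4, 16.2 ± 4.01 TPM for Tlr1 and 14.5 ± 2.58 TPM for Tlr6, and neighbours in this order overlapped. Tlr9, the endosomal receptor for unmethylated CpG DNA, was lower than all of them at 10.6 ± 1.0 TPM. Tlr3, the endosomal receptor for double-stranded RNA, followed at 4.12 ± 1.01 TPM. Tlr5, the receptor for flagellin, was close to the limit of detection at 0.15 ± 0.0954 TPM.

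In libraries labelled KO the order was different and more spread. Tlr13 remained first at 209 ± 91.0 TPM, but its range overlapped that of Tlr7 at 86.0 ± 62.5 TPM. Tlr2 came next at 65.1 ± 9.56 TPM, ahead of Tlr8 at 40.5 ± 27.6 TPM and Tlr9 at 28.7 ± 3.06 TPM. Tlr1, Tlr4 and Tlr6 lay between 12.7 and 17.3 TPM on average, followed by Tlr3 at 2.91 ± 2.97 TPM and Tlr5 at 1.31 ± 0.574 TPM. The SDs of Tlr13, Tlr7, Tlr8, Tlr4 and Tlr3 were wide, and KO replicate 1 was the highest of the libraries labelled KO for each of these genes. KO replicates 2 and 3 also differed, at 17.0 and 33.6 TPM for Tlr8 and 5.82 and 10.05 TPM for Tlr4.

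**Figure D1:**
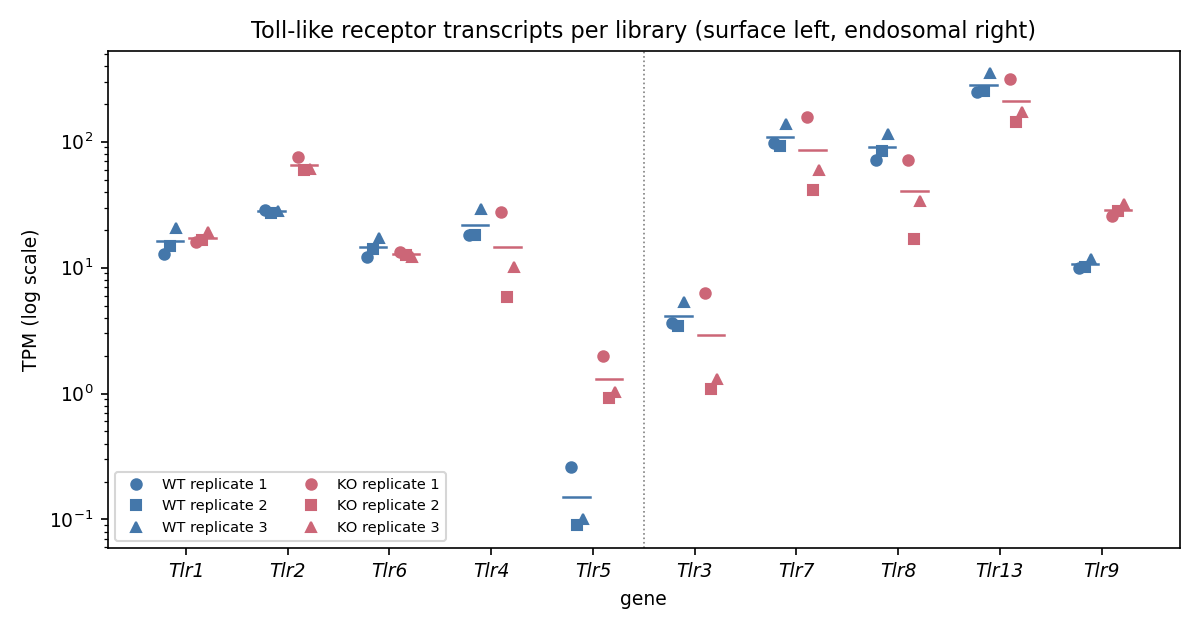
Level of each Toll-like receptor gene in TPM on a log axis, 1 point per library, with libraries labelled KO and WT side by side and a bar at the group mean. Tlr13 is highest in both groups, Tlr2, Tlr5 and Tlr9 have all points of KO above those of WT, and KO replicate 1 stands near the WT points for Tlr3, Tlr4, Tlr7 and Tlr13.

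Between the groups, 3 of the 10 receptors passed the test over all 6 libraries, Tlr2, Tlr5 and Tlr9, and all 3 were higher in libraries labelled KO, where 2.26% of all tested genes were called in that direction. No receptor was called lower by edgeR, where 1.06% of all tested genes were. At an unadjusted p under 0.05, 2 were lower, Tlr6 and Tlr8 (7.76% of all tested genes), and DESeq2 called 4 receptors (10.8% of its genes), 3 higher (7.12%) and 1 lower, Tlr6 (3.69%). The median log2 difference over the 10 receptors was -0.48, against -0.01 over all tested genes. Without KO replicate 1, 9 receptors passed, 3 higher and 6 lower, in a comparison that called 23.6% of all tested genes higher and 26% lower. With the GC and length correction, which called 5.92% of its genes over all libraries (3.14% higher and 2.78% lower) and 53.9% without KO replicate 1 (23.2% higher and 30.7% lower), the counts of receptors were the same, 3 higher and 0 lower (at an unadjusted p under 0.05, 3 lower, with 13% of all tested genes) and then 3 higher and 6 lower. Fewer cells of one kind and less RNA per cell cannot be told apart in such bulk libraries.

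Among the surface receptors, Tlr2 had the clearest difference. Tlr2 (chr3:83836272-83841824 on GRCm38, the build of the table's coordinates) forms pairs with Tlr1 or Tlr6 and binds bacterial lipoproteins. Libraries labelled KO had 113, 96.1 and 96.5 CPM, and libraries labelled WT had 52, 47.7 and 46.5 CPM. The groups did not overlap, and the lowest library labelled KO was well above the highest labelled WT. The mean rose from 48.7 ± 2.86 to 102 ± 9.42 CPM, a ratio of 2.09 (log2 difference 1.06, SE 0.103, 95% interval 0.81 to 1.31, adjusted p = 0.0147, edgeR quasi-likelihood test). The log2 difference was 1.0 without KO replicate 1 (adjusted p = 0.000109), and with the GC and length correction it was 0.91 (adjusted p = 0.0284).

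Tlr1 and Tlr6, the partners of Tlr2 for triacylated and diacylated lipoproteins, did not follow it. They are neighbours on chromosome 5 (Tlr1 at chr5:64924680-64933600 and Tlr6 at chr5:64952030-64970942, GRCm38) with very similar coding sequences, so a read can match both. In the GENCODE coding sequences, 454 of 2336 runs of 50 bases in Tlr1 (19.4%) also occurred in Tlr6. The longest identical run had 229 bases and lay in exon 4 of Tlr1 (chr5:64925537-64925765) and exon 2 of Tlr6 (chr5:64953828-64954056), both on the minus strand. It is shown because no read lying wholly within it can be assigned to 1 of the genes.
Tlr1 and Tlr6 shared coding stretch: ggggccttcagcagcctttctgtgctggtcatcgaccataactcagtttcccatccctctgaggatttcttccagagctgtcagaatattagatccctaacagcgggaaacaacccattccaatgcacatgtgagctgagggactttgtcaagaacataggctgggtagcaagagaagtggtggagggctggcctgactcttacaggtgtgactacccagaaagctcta
In the deposited counts neither gene was a whole number in any of the 6 libraries, whereas their sum was whole in all 6 within a tolerance of 0.001. Reads had therefore been divided between the pair, and a difference of either gene alone depends on that division.

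Tlr6 had the smaller spread of the pair. Its level was 20.8, 21.2 and 20.6 CPM in libraries labelled KO and 26.3, 27.3 and 30.3 CPM in libraries labelled WT. All libraries labelled KO were lower, but the ratio of 0.746 did not pass (log2 difference -0.42, SE 0.098, adjusted p = 0.0764, edgeR quasi-likelihood test). It passed without KO replicate 1 (log2 difference -0.40, adjusted p = 0.0150) and by DESeq2 (adjusted p = 0.0173), and the authors' deposited table gave a q-value of 0.0216. In TPM the groups overlapped, at 12.2 to 13.2 TPM in libraries labelled KO and 12.2 to 17.3 TPM in libraries labelled WT. Tlr1 was at 23.7, 27.8 and 31.3 CPM in libraries labelled KO and 23.4, 26.1 and 33.9 CPM in libraries labelled WT. These ranges covered each other almost fully (log2 difference -0.01, 95% interval -0.45 to 0.43, adjusted p = 0.976). With the counts of both genes summed, an alternative chosen after the data were seen, the libraries labelled KO held 808, 955 and 997 counts and those labelled WT 855, 924 and 1070 counts. The log2 difference of the sum was -0.20 (SE 0.129, adjusted p = 0.376, edgeR), and the groups overlapped.

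The amount of Tlr2 relative to its partners therefore differed between the libraries. Tlr2 divided by the sum of Tlr1 and Tlr6, in TPM, was 2.61, 2.01 and 1.91 in libraries labelled KO and 1.14, 0.936 and 0.742 in libraries labelled WT. Each library labelled KO held more Tlr2 than both partners together by this measure, with no overlap between the groups.

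Tlr4, the receptor for lipopolysaccharide (chr4:66827551-66846581, GRCm38), depended on a single library. Libraries labelled KO had 120.1, 27.8 and 47.3 CPM, and libraries labelled WT 96.9, 92.7 and 140.0 CPM. KO replicate 1 lay inside the WT range, and the other 2 libraries labelled KO lay below it. Over all libraries the ratio was 0.592 and did not pass (log2 difference -0.76, 95% interval -2.11 to 0.60, adjusted p = 0.427, edgeR). It was 0.342 without KO replicate 1 (log2 difference -1.53, adjusted p = 0.0054), and the GC and length correction brought that difference to -0.45 (adjusted p = 0.0186). Tlr2 divided by Tlr4, in TPM, was 2.75, 10.2 and 5.98 in libraries labelled KO and 1.57, 1.51 and 0.971 in libraries labelled WT, again without overlap.

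Tlr5 (chr1:182954752-182976429, GRCm38) was the rarest receptor and had the largest ratio. It held 61, 34 and 36 counts in libraries labelled KO and 9, 3 and 3 counts in libraries labelled WT, that is 3.36, 1.75 and 1.88 CPM against 0.523, 0.173 and 0.18 CPM. All libraries labelled KO were higher, KO replicate 1 the most. The ratio of the means was 7.96 (log2 difference 2.96, SE 0.537, 95% interval 1.65 to 4.27, adjusted p = 0.0471, edgeR), and with no filter on low counts the adjusted p was 0.0536. The log2 difference was 2.61 without KO replicate 1 (adjusted p = 0.00168). Even so, Tlr5 made up at most 0.286% of the summed TPM of the family in any library.

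Among the endosomal receptors, Tlr9 was called higher in libraries labelled KO, and none of the RNA receptors was called over all libraries. Tlr9 (chr9:106222598-106226876, GRCm38) had 47.3, 56.7 and 63.3 CPM in libraries labelled KO against 22, 22.1 and 23.9 CPM in libraries labelled WT. Every library labelled KO was above every library labelled WT, and KO replicate 1 was the lowest of its group. The mean rose from 22.7 ± 1.07 to 55.8 ± 8.06 CPM, a ratio of 2.46 (log2 difference 1.30, SE 0.132, 95% interval 0.98 to 1.62, adjusted p = 0.0157, edgeR quasi-likelihood test). Without KO replicate 1 the log2 difference was 1.42 (adjusted p = 4.08e-05), and with the GC and length correction it was 1.14 (adjusted p = 0.00904).

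The calls of Tlr2, Tlr5 and Tlr9 held without KO replicate 1 but not when any 1 of the other 5 libraries was left out, where between 5 and 15 genes of the whole table were called. Those calls made up 0.13% and 0.0952% of the tested genes when KO replicate 2 or 3 was left out, and 0.119%, 0.0427% and 0.0598% when WT replicate 1, 2 or 3 was. In those fits their adjusted p ranged from 0.0762 to 0.156 for Tlr2, from 0.112 to 0.254 for Tlr5 and from 0.0786 to 0.156 for Tlr9. Their log2 differences stayed positive, at 1.02 to 1.09 for Tlr2, 2.67 to 3.64 for Tlr5 and 1.16 to 1.33 for Tlr9.

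**Figure D2:**
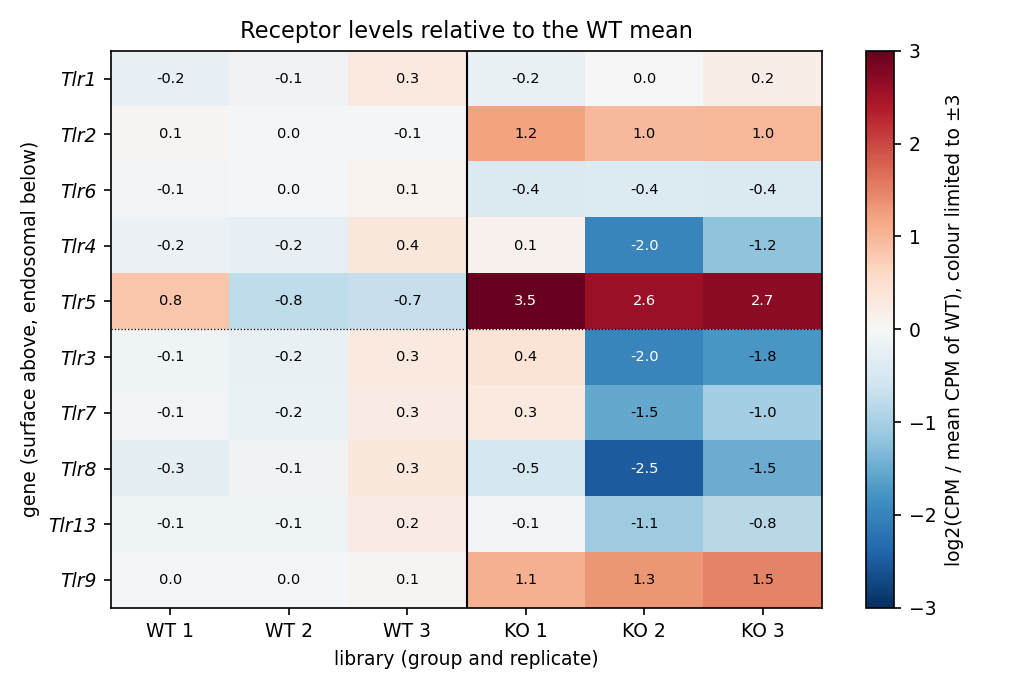
Level of each receptor in each library as the log2 ratio of its CPM to the mean CPM of the 3 libraries labelled WT, with surface receptors above and endosomal receptors below the dotted line and colour limited at 3 in either direction. Tlr2, Tlr5 and Tlr9 are above 0 in all libraries labelled KO, while Tlr3, Tlr4, Tlr7, Tlr8 and Tlr13 are far below 0 in KO replicates 2 and 3 and nearer to it in KO replicate 1.

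Of the RNA receptors, Tlr8 (chrX:167241123-167264329, GRCm38), known in humans as a receptor for products of RNA degradation, was the only one without overlap. Libraries labelled KO had 186, 47.5 and 95.3 CPM, and libraries labelled WT 221, 251 and 334 CPM. The ratio of 0.408 did not pass after adjustment (log2 difference -1.30, 95% interval -2.52 to -0.07, unadjusted p = 0.0418, adjusted p = 0.200, edgeR). The ratio was 0.266 without KO replicate 1 (log2 difference -1.90, adjusted p = 0.0042), and with the GC and length correction as well the log2 difference was -0.92 (adjusted p = 0.00377).

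Tlr7 (chrX:167303380-167330574, GRCm38) had 350.3, 99.3 and 141 CPM in libraries labelled KO against 269.9, 248 and 341 CPM in libraries labelled WT. KO replicate 1 was the highest of all 6 libraries, whereas KO replicates 2 and 3 were the lowest. The log2 difference was -0.54 (95% interval -1.72 to 0.65, adjusted p = 0.506, edgeR) over all libraries and -1.23 (adjusted p = 0.00244) without KO replicate 1. With the GC and length correction in the latter comparison it was -0.35 (adjusted p = 0.00832). The deposited counts of Tlr7 were not whole in any of the 6 libraries, so some of its reads may have been divided with another gene, which was not identified here.

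Tlr13 (chrX:106143275-106160493, GRCm38) had 667, 336 and 396 CPM in libraries labelled KO against 641, 644 and 829 CPM in libraries labelled WT. KO replicate 1 lay within the WT range and the other 2 libraries labelled KO below it. The log2 difference was -0.60 (95% interval -1.30 to 0.10, adjusted p = 0.274, edgeR), and -0.93 (adjusted p = 0.00104) without KO replicate 1, where the correction left -0.55 (adjusted p = 0.000593). Tlr3 (chr8:45395665-45411075, GRCm38) had 14.8, 2.82 and 3.34 CPM against 10.4, 9.59 and 13.8 CPM, with KO replicate 1 again the highest of all libraries. Its log2 difference was -0.69 (95% interval -2.35 to 0.98, adjusted p = 0.545, edgeR), and -1.85 (adjusted p = 0.000305) without KO replicate 1, where the correction left -0.81 (adjusted p = 0.0016).

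The order of the libraries therefore took 3 forms. Tlr2, Tlr5 and Tlr9 had all 3 libraries labelled KO above all WT libraries, as did 18.4% of the tested genes. Tlr6 and Tlr8 had all 3 below, as did 12.6% of the tested genes. Tlr3, Tlr4, Tlr7 and Tlr13 had KO replicates 2 and 3 below all WT libraries and KO replicate 1 not below, an order found in 23% of the tested genes. Tlr1 was in none of these groups.

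**Figure D3:**
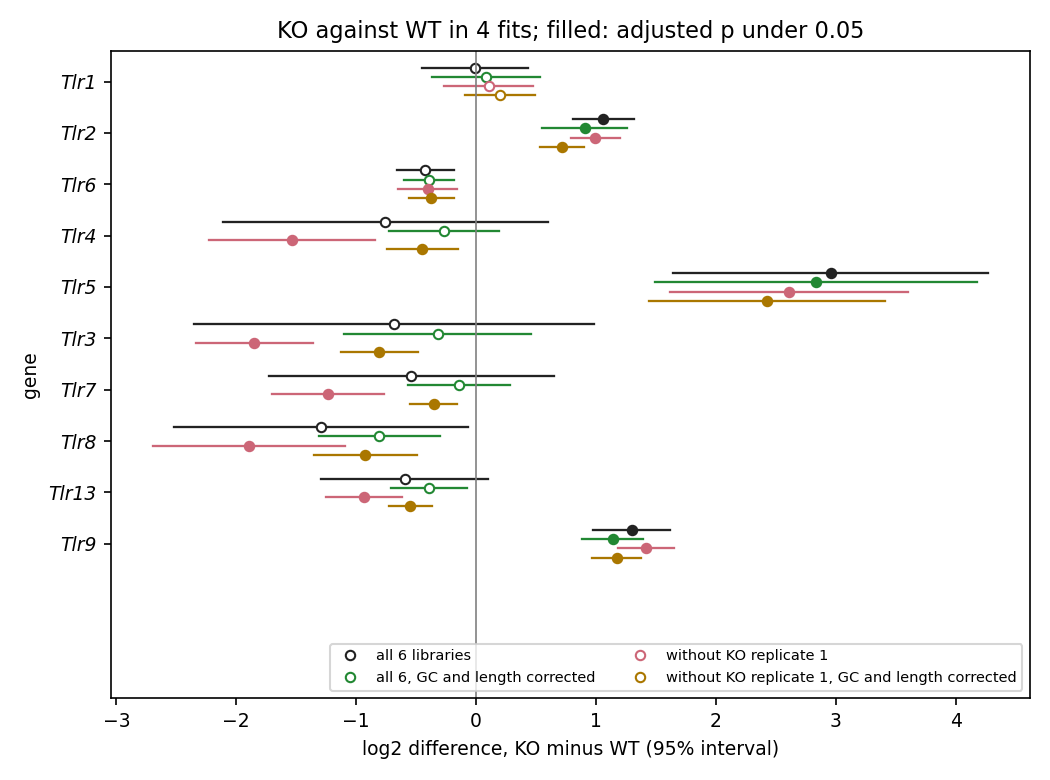
Log2 difference, KO minus WT, of each receptor with its 95% interval in 4 fits: all 6 libraries or without KO replicate 1, each with and without the GC and length correction. Filled points passed an adjusted p of 0.05. Tlr2, Tlr5 and Tlr9 are filled in all 4 fits, whereas Tlr3, Tlr4, Tlr7, Tlr8 and Tlr13 are filled only without KO replicate 1 and move towards 0 with the correction.

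Of the 6 receptors called lower without KO replicate 1, all but Tlr6 had GC-poor transcripts. The GC content of the 5 was 39.4% for Tlr4, 40.03% for Tlr3, 40.1% for Tlr8, 40.95% for Tlr7 and 43.6% for Tlr13, all in the lowest quartile of the tested genes (31% to 44.7%). The median log2 difference of the 2820 genes of that quartile was -0.43 with all libraries and -0.78 without KO replicate 1, against 0.06 and 0.11 in the highest quartile, which held Tlr9 at 56.2%. Tlr1, Tlr6, Tlr5 and Tlr2 lay in the second quartile, at 45.1%, 45.6%, 47.6% and 49.3%, where the medians were 0.03 and 0.04.

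Each receptor was also set beside the other tested genes within 1 percentage point of its GC content. Without KO replicate 1, the middle 50% of the 725 genes around Tlr7 had log2 differences of -1.60 to -0.45, which includes the -1.23 of Tlr7. Tlr4 at -1.53 also lay within the span of its 528 neighbours, -1.79 to -0.68, and Tlr13 at -0.93 lay at the lower edge of its own, -0.96 to 0.05. Tlr8 at -1.90 and Tlr3 at -1.85 lay below the spans of their neighbours, -1.71 to -0.61 and -1.72 to -0.62.

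For the receptors that rose, the same neighbours were close to 0. The middle 50% around Tlr2 ran from -0.11 to 0.40, around Tlr5 from -0.22 to 0.36 and around Tlr9 from -0.10 to 0.38, all below the 1.0, 2.61 and 1.42 of the receptors in that comparison. GC content and length together accounted for 9.36% of the variance of the log2 differences over all libraries and 17.0% without KO replicate 1.

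**Figure D4:**
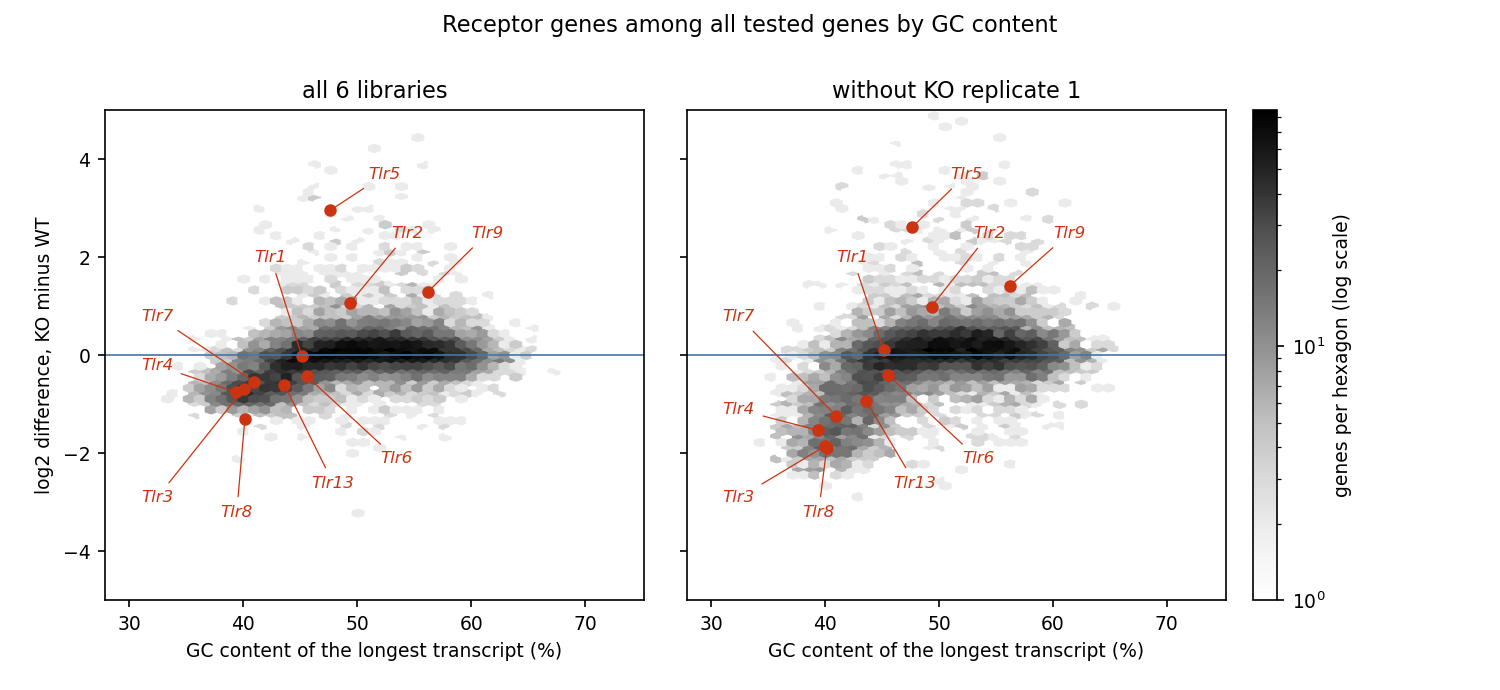
Log2 difference, KO minus WT, of all tested genes against the GC content of the longest transcript in percent, shaded by the number of genes on a log scale, with the 10 receptors as labelled points, for all 6 libraries and without KO replicate 1. Genes in the lowest quartile of GC content lie mostly below 0, more so without KO replicate 1, and Tlr3, Tlr4, Tlr7, Tlr8 and Tlr13 lie among them, while Tlr2, Tlr5 and Tlr9 lie above the bulk of genes of like GC content.

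Ratios between receptors showed how the make-up of the family differed. The summed level of the 10 receptors was 708, 326 and 399.9 TPM in libraries labelled KO and 501, 519 and 715 TPM in libraries labelled WT. The endosomal receptors took 80.9%, 70.8% and 74.3% of it in libraries labelled KO and 85.5%, 85.7% and 86.7% in libraries labelled WT. The surface share was thus higher in each library labelled KO than in any labelled WT. These shares are without the GC and length correction. All endosomal receptors but Tlr9 were in the lowest quartile of GC content, as was Tlr4 among the surface receptors. Tlr9 divided by Tlr7 was 0.165, 0.686 and 0.538 in libraries labelled KO and 0.102, 0.111 and 0.0846 in libraries labelled WT, so the DNA receptor was nearer in level to the RNA receptor in each library labelled KO. With GC and length corrected, Tlr9 minus Tlr7 in log2 was -2.47, -1.70 and -1.77 in libraries labelled KO and -3.35, -3.25 and -3.24 in libraries labelled WT, still without overlap.

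Tlr7, Tlr8 and Tlr13 are on the X chromosome, and the labels were confounded with Y-linked expression. The 4 Y-linked genes measured held 12 counts over the 3 libraries labelled KO and 7176 over the 3 labelled WT. The median log2 difference of the 366 tested X-linked genes was -0.12 over all libraries and -0.23 without KO replicate 1, against -0.00 and 0.01 for autosomal genes. With the GC and length correction over all libraries it was -0.01 for X-linked and -0.03 for autosomal genes. The label and the presence of Y-linked RNA cannot be told apart here.

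PU.1 binds a purine-rich sequence with the core GAGGAA. The RefSeq windows of 250 bases upstream of annotated starts (GRCm38.p6) were searched for these letters on both strands. Of the 10 receptors, 8 had such windows, 10 in all. The letters were found in 1 window each of Tlr1, Tlr8, Tlr9 and Tlr13, and in none of those of Tlr2, Tlr3, Tlr5 and Tlr6. They occurred in 23.3% of all 32851 windows of this length, so the match is a description of the letters and not of binding. The windows of Tlr3 and Tlr6 and the match of Tlr1 lay inside the gene spans given above. For Tlr3 and Tlr6 the search therefore did not cover sequence upstream of the gene as located here. The Tlr1 window with the match (chr5:64933559-64933808) reached partly upstream of the Tlr1 span. The Tlr9 window (chr9:106222348-106222597, plus strand) is shown whole because Tlr9 had the smallest adjusted p without KO replicate 1, and 30 bases are shown around the match of Tlr1 (chr5:64933564-64933593, minus strand), Tlr8 (chrX:167264389-167264418, minus strand) and Tlr13 (chrX:106143180-106143209, plus strand). Each runs 5′ to 3′ along the gene's strand, with the matched letters in capitals; in Tlr8 the match is on the opposite strand and reads TTCCTC.
Tlr9 upstream window: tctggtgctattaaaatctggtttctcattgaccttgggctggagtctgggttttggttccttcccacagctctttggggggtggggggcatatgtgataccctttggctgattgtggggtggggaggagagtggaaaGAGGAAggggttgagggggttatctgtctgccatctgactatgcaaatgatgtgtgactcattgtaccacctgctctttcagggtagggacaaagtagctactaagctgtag
Tlr1 match: aattaaatgttgGAGGAAgtaggagcttga
Tlr8 match: tataaatgacttTTCCTCtgaattcagttt
Tlr13 match: aaaaaaagagaaGAGGAAggaaatgtctca
The match of Tlr1 continues as GAGGAAGT, which 2.44% of the windows held. The 4 genes with a match included 1 that rose (Tlr9), 1 with no difference between the groups beyond their spread (Tlr1) and 2 that were low in KO replicates 2 and 3 (Tlr8 and Tlr13).

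Genes that serve the receptors were followed by role, in 9 lists with 105 tested genes of which 6 were called higher and 4 lower over all libraries, where 2.26% of all tested genes were called higher and 1.06% lower. Their median log2 difference was 0.04, against -0.01 for all tested genes. Without KO replicate 1 the calls were 31 higher and 30 lower of 106, beside 23.6% and 26% of all tested genes. With the GC and length correction as well, they were 23 higher and 39 lower, beside 23.2% and 30.7%. Among the 6 surface co-receptors none passed in edgeR, with 1 higher and 2 lower at an unadjusted p under 0.05 and by DESeq2. Cd14, which hands lipopolysaccharide to Tlr4 and also serves Tlr2, was at 220, 498 and 483 CPM in libraries labelled KO and 147, 167 and 140.1 CPM in libraries labelled WT. All libraries labelled KO were higher, KO replicate 1 the least (log2 difference 1.40, adjusted p = 0.0788 over all libraries and 1.0e-05 without KO replicate 1, edgeR). Cd36, a scavenger receptor that works with Tlr2 and Tlr6, was chosen after its values were seen and was at 619, 204 and 311 CPM against 1175, 1307 and 1739 CPM. Its groups lay apart in the other direction (log2 difference -1.90, adjusted p = 0.0788, edgeR). Ly96, the partner of Tlr4 in binding lipopolysaccharide, also chosen after its values were seen, was at 8.37, 3.18 and 3.6 CPM against 12.4, 10.7 and 12.3 CPM (adjusted p = 0.144).

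Of the 9 genes that fold the receptors or carry them to endosomes, none passed over all libraries by edgeR or DESeq2, and none had an unadjusted p under 0.05 by edgeR, with a median log2 difference of -0.00. The smallest p was that of Ap3b1, a subunit of an adaptor complex for vesicle transport (log2 difference 0.23, adjusted p = 0.260, edgeR). Unc93b1, which escorts the endosomal receptors and was named for this role after its values were seen, was at 616, 735 and 782 CPM against 746, 764 and 697 CPM, with overlapping groups (log2 difference -0.05, adjusted p = 0.805). With KO replicate 1 left out, 2 of the 9 were higher and 2 lower (23.6% and 26% of all tested genes). With the GC and length correction as well, 0 were higher and 5 lower (23.2% and 30.7%). The lower genes without the correction included Hsp90b1, a chaperone of the receptors chosen after its values were seen. It had 619, 151 and 216 CPM in libraries labelled KO against 706, 706 and 781 CPM in libraries labelled WT, KO replicate 1 being nearest to WT (log2 difference -1.15, adjusted p = 0.263 over all libraries, and -1.98, adjusted p = 7.14e-05 with KO replicate 1 left out, edgeR).

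Endosomal proteases and nucleases cut the receptors into their active form or trim their ligands. Of 10 tested genes 3 fell and none rose by edgeR, with a median log2 difference of -0.36. Pld4, a relative of Pld3, was higher at an unadjusted p under 0.05 and by DESeq2, as the only such gene of this list. Ctss, the protease cathepsin S, was at 3024, 4220 and 3949 CPM in libraries labelled KO and 9177, 9890 and 9560 CPM in libraries labelled WT, with all libraries labelled KO lower (log2 difference -1.35, adjusted p = 0.0196). Ctsk, the protease cathepsin K, was at 6.94, 13.2 and 14.3 CPM against 59.7, 72.0 and 66.3 CPM (log2 difference -2.52, adjusted p = 0.0214). Pld3, an endolysosomal exonuclease that limits the nucleic acids reaching Tlr9 and Tlr7, was at 825, 1034 and 1134 CPM against 1717, 1873 and 1689 CPM (log2 difference -0.82, adjusted p = 0.0422). For each of these the groups were far apart, and KO replicate 1 was the lowest library.

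Over all libraries few adaptors and signalling genes were called. None of the 6 tested adaptors passed by edgeR or DESeq2 and none had an unadjusted p under 0.05 by edgeR, Myd88 having the smallest p (70.6, 99.97 and 95.9 CPM against 78.9, 74.1 and 72.8 CPM, adjusted p = 0.364). Of 20 kinases and ubiquitin ligases 1 rose, Ikbke, a kinase that acts on interferon regulatory factors, at 109.7, 101.04 and 102.3 CPM against 64.5, 76.0 and 71.8 CPM (log2 difference 0.56, adjusted p = 0.0416). With the GC and length correction its adjusted p was 0.0588. Of 13 transcription factors 1 rose, Irf7, the factor through which Tlr7 and Tlr9 induce interferon, at 17.0, 11.6 and 11.3 CPM against 3.66, 4.79 and 3.78 CPM (log2 difference 1.70, adjusted p = 0.0269, edgeR). Of 17 inhibitors 1 rose, Sigirr, a receptor of the same superfamily that dampens signalling, at 4.79, 2.16 and 2.19 CPM against 0.523, 0.520 and 0.300 CPM (log2 difference 2.74, adjusted p = 0.0425). Like Tlr5, Sigirr met the filter only through the libraries in which it was higher, with 87, 42 and 42 counts against 9, 9 and 5. In Irf7 and Sigirr alike, all libraries labelled KO lay above all labelled WT and KO replicate 1 was the highest. When KO replicate 1 was left out, in a comparison that called 49.6% of all tested genes, 3 of 7 adaptors passed, 2 higher and 1 lower. Myd88 was among the higher (adjusted p = 0.00543, edgeR). Also passing were 11 of 20 kinases and ligases (2 higher, 9 lower), 8 of 13 transcription factors (5 higher, 3 lower) and 10 of 17 inhibitors (7 higher, 3 lower). The GC and length correction in that comparison called 23.2% of its genes higher and 30.7% lower. With it, 1 adaptor was higher and 0 lower, and Myd88 did not pass (log2 difference 0.11, adjusted p = 0.181, edgeR). The counts were then 3 higher and 10 lower for kinases and ligases, 4 and 7 for transcription factors, and 3 and 4 for inhibitors.

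**Figure D5:**
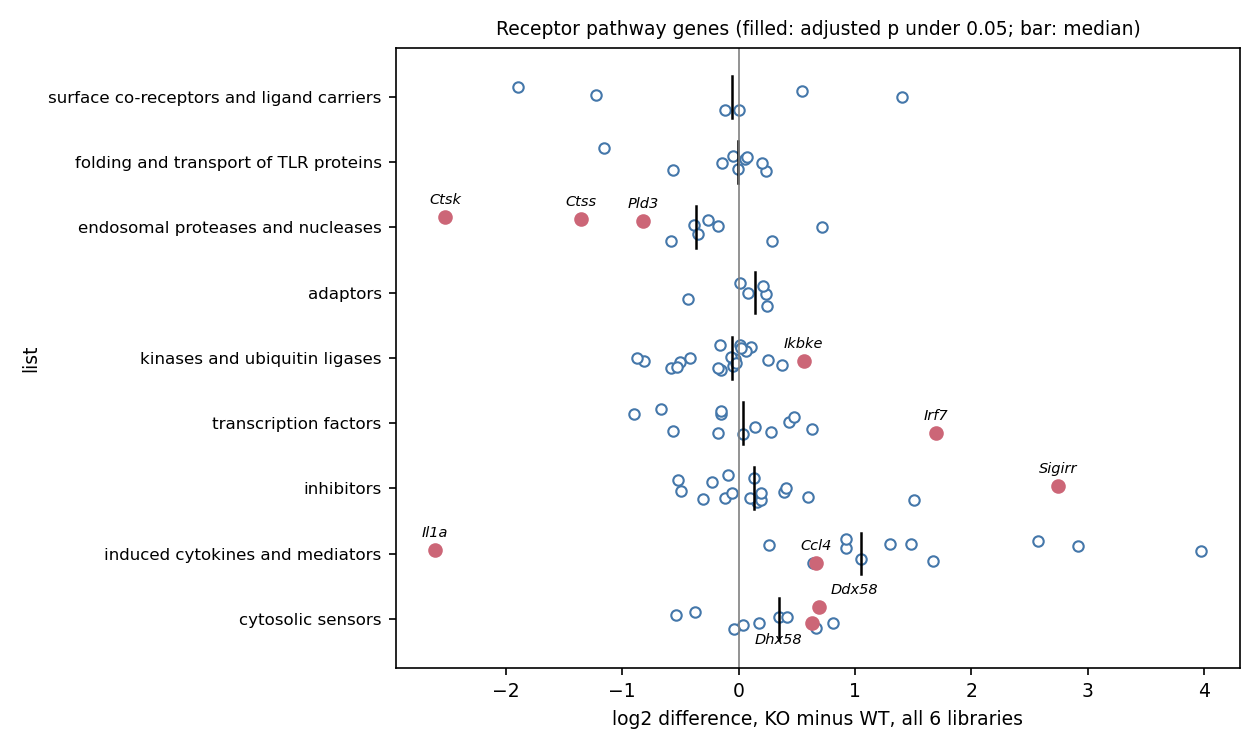
Log2 difference, KO minus WT, over all 6 libraries for each tested gene of the receptor pathway, by role, with a bar at the median of each list. Filled and named points passed an adjusted p of 0.05: 6 genes higher and 4 lower of 105.

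Of 13 tested cytokines and mediators induced by the receptors, 1 rose and 1 fell, and the list's median log2 difference was 1.05 over all libraries and 0.35 without KO replicate 1. Ccl4, a chemokine, was at 50.5, 52.6 and 52.2 CPM against 37.2, 31.7 and 29.1 CPM (log2 difference 0.67, adjusted p = 0.0443, edgeR). Il1a, an interleukin of the IL-1 family, was at 0.385, 0.821 and 1.36 CPM against 4.01, 5.26 and 6.55 CPM (log2 difference -2.61, adjusted p = 0.0464, edgeR). Its counts were 7, 16 and 26 against 69, 91 and 109, so it met the filter only through the libraries in which it was higher. With no filter its adjusted p was 0.0511, and with the GC and length correction 0.110. In both genes KO replicate 1 lay on the same side of WT as its group. In 3 other genes of the list, picked after their values were seen and not called, KO replicate 1 was far above the rest. Acod1, the enzyme that makes itaconate, was at 69.8 CPM in KO replicate 1 and between 3.30 and 5.34 CPM in the other 5 libraries. Tnf was at 48.2 CPM in KO replicate 1 and between 14.5 and 19.7 CPM in the others, and Saa3, an acute-phase protein, at 27.6 CPM and between 0.18 and 1.36 CPM.

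Of 11 sensors that detect nucleic acids or cell wall fragments in the cytosol, 2 rose, with a median log2 difference of 0.35. Ddx58, the RNA sensor RIG-I, was at 34.7, 38.8 and 33.6 CPM against 21.6, 20.6 and 24.1 CPM (log2 difference 0.69, adjusted p = 0.0389, edgeR). Dhx58, a relative that regulates it, was at 22.8, 26.7 and 27.1 CPM against 17.4, 15.4 and 16.8 CPM (log2 difference 0.63, adjusted p = 0.0480). Each of these 10 calls was lost in several alternatives, among them the fits without any 1 of the 5 libraries other than KO replicate 1.

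Markers of other cells moved with the labels, with KO replicate 1 or with KO replicates 2 and 3, and their part in the receptor values was not tested. The 6 monocyte markers summed to 46.4 to 139 TPM in libraries labelled KO and 6.17 to 8.03 TPM in libraries labelled WT. Cx3cr1 and Spn were called higher. Treml4 was at 2.05 to 2.93 TPM against 2.65 to 3.48 TPM. Ace was at 0.21 to 0.27 TPM against 0.1 to 0.29 TPM. Both Treml4 and Ace overlapped between the groups and were not called. Ly6c2 at 59.99 TPM and Ccr2 at 33.5 TPM were high in KO replicate 1, and did not exceed 1.95 and 1.2 TPM in the other libraries. The 5 conventional dendritic cell markers summed to 11.3 TPM in KO replicate 1 and 0.22 to 1.14 TPM in the other libraries. In KO replicate 1, Cd209a made up 10.6 TPM of this sum. Flt3 was at 0.48 TPM there and at most 0.04 TPM in the other libraries, and Xcr1 at 0.02 TPM and 0 TPM. Clec9a at 0.13 TPM and Zbtb46 at 0.07 TPM in KO replicate 1 were below all libraries labelled WT. The 5 markers of plasmacytoid dendritic cells, which are known for Tlr7 and Tlr9, summed to 15.8 TPM in KO replicate 1 and 4.55 to 11.6 TPM in the others. Of these, Siglech was at 2.1 TPM in KO replicate 1 and Tcf4 at 13.3 TPM, while Ccr9 at 0.02 TPM and Ly6d at 0.22 TPM were within the range of the other libraries. KO replicates 2 and 3 held 0 TPM of Siglech, and libraries labelled WT at most 0.05 TPM. The 5 fibroblast markers in the table summed to 7.15 and 11.9 TPM in KO replicates 2 and 3, 0.85 TPM in KO replicate 1 and 1.85 to 2.56 TPM in libraries labelled WT, so that KO replicates 2 and 3 stood apart as they did, in the other direction, for Tlr3, Tlr4, Tlr7 and Tlr13. The 6 B cell markers summed to 2.28 to 6.25 TPM in libraries labelled KO and 2.20 to 2.46 TPM in libraries labelled WT. The 5 neutrophil markers in the table summed to 22.8 to 59.1 TPM against 73.3 to 83.2 TPM. The 6 platelet markers summed to 118 to 330.3 TPM against 186 to 259 TPM. Itga2b, Gp9 and Gp1bb were called lower. Ppbp, not called, was also lower in each library labelled KO. Most of each sum was Pf4 and Itgb3, which were not called. Pf4 was at 235, 78.4 and 71.3 TPM against 75.4, 96.2 and 81.2 TPM. Itgb3 was at 82.4, 50.8 and 45.5 TPM against 65.7, 72.9 and 82.2 TPM. Gp9 and Gp1bb held at most 2 counts in any library labelled KO and met the filter only through libraries labelled WT.

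The genes whose pattern over the 6 libraries was most like that of each called receptor were sought among the 8272 other genes averaging 10 CPM or more. For Tlr2 they were Orai2, a calcium channel subunit (Pearson r of log2 CPM 0.998), the proteoglycan Sdc4 (0.996) and Csf1r, the receptor of macrophage colony-stimulating factor (0.996). For Tlr5 they were Cercam (0.999), Alox5, the lipoxygenase that starts leukotriene synthesis (0.993), and the mitochondrial carrier Slc25a23 (0.991). For Tlr9 they included Ppp1r13b (0.998) and the spindle protein Numa1 (0.996). Such values were common, since 168, 102 and 276 of the candidates reached r of over 0.95 with Tlr2, Tlr5 and Tlr9, and the 6 points share their libraries and the split between the labels.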

How the data were processed

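Messenger RNA was captured on beads, fragmented, converted to cDNA and sequenced on an Illumina instrument, per the labels' protocols. The submitters' processing notes name fastp 0.18.0 and the build GRCm39; no source used here names the aligner, the counting program or its strand setting. The deposited table carries coordinates of GRCm38, which are used here; it lists Tlr3 on the plus strand, unlike RefSeq and GENCODE.

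The authors deposited unnormalized estimated counts for each gene, per the file headers; these were rounded before count tests. TPM values deposited by the authors served for levels between genes, and the deposited FPKM values were not used. The deposited log2 fold changes, p-values and q-values are from DESeq2, per the file headers.

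Groups were taken from the sample titles. Genes were kept with filterByExpr (minimum count 10), scaled with TMM and tested in edgeR 4.0.16 under R 4.3.3 by its robust quasi-likelihood F test with group as model. P-values were adjusted by Benjamini-Hochberg over all genes tested and called under 0.05. CPM are on TMM-scaled library sizes. Depth was 17280855 to 18632623 counts per library, so genes of few counts, such as Tlr5, are the least precise.

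The alternatives tried were DESeq2 1.42.0, limma-voom (limma 3.58.1), limma on log2(TPM + 1), upper-quartile and RLE factors, genes averaging 10 CPM or more, no filter, a replicate block, leaving out each library, and a smooth correction per library for GC content and length of the longest GENCODE transcript (mgcv 1.9.3; 98.7% of tested genes had a value). The sum of Tlr1 and Tlr6 was added after the data were seen. The fits were tested on simulated data.

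The members and the gene lists were chosen with earlier results of these data known. Named genes were all 10 receptors and, from each role list, the called genes that differed most (at most 3, averaging 1 CPM or more), or the gene of smallest p if none was called. Likeness was ranked by Pearson r of log2 CPM over the 6 libraries. The results of 2 genes that these rules or the marker lists name are not reported here.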

Additional observations from a re-analysis of the deposited data

How the results depend on the processing

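Tlr2, Tlr5 and Tlr9 were higher in libraries labelled KO under every alternative in which they were tested. The number of receptors called, 3 over all libraries, was 0 to 9 when 1 library was left out and 9 without KO replicate 1 under the GC and length correction; DESeq2 called 4. Without any 1 of the other 5 libraries 0 receptors were called by edgeR, while 4 to 5 had an unadjusted p under 0.05. Tlr1, not called in any fit, changed sign: its log2 difference of -0.01 was 0.062 with upper-quartile factors, 0.0013 with limma-voom, 0.11 on log2(TPM + 1), 0.012 in genes averaging 10 CPM or more, 0.082 with the GC and length correction, 0.20 with that correction and without KO replicate 1, and -0.14 to 0.15 with 1 library left out.

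The number of all genes called, 379, was 1344 by DESeq2, 895 on log2(TPM + 1), 229 in genes averaging 10 CPM or more, 668 with the GC and length correction, 6205 with that correction and without KO replicate 1, and 5 to 5793 with 1 library left out. The number of pathway genes called, 10, was 26 by DESeq2, 16 on log2(TPM + 1), 6 with no filter, 6 in genes averaging 10 CPM or more, 16 with the correction, 62 with the correction and without KO replicate 1, and 0 to 61 with 1 library left out (the 5 fits other than that without KO replicate 1 called 0 by edgeR, with 27 to 33 at an unadjusted p under 0.05). The causes of these moves were not tested. Genes with few counts, such as Tlr5, were limited by depth.

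Replicate numbers did not pair the libraries: the deviations of same-numbered libraries from their group means correlated at -0.16, 0.25 and -0.27. With the replicate number as a block, 0 receptors, 0 pathway genes and 0 of all genes were called by edgeR (5, 28 and 1976 at an unadjusted p under 0.05), and the adjusted p of Tlr2, Tlr5 and Tlr9 was 0.113 each.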

Other observations

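Genes of the receptor pathway on the X chromosome, chosen after their values were seen, were not all ordered like Tlr7 and Tlr13. Tab3, a subunit of the kinase complex below the receptors, had 13.9, 1.69 and 3.08 CPM in libraries labelled KO against 9.89, 10.1 and 14.2 CPM in libraries labelled WT. The gene listed as 5430427O19Rik, whose protein is an adaptor of Slc15a4, had 17.7, 7.44 and 7.51 CPM against 15.3, 12.6 and 16.1 CPM. Ikbkg, the regulatory subunit of the IκB kinase, had 128, 75.7 and 66.2 CPM against 100.5, 91.8 and 108 CPM. In these 3 genes KO replicates 2 and 3 were below all libraries labelled WT and KO replicate 1 was not, as in Tlr7 and Tlr13. Irak1, a kinase recruited by Myd88, had 144, 147 and 132 CPM against 136, 137 and 146 CPM. Btk, a kinase used by several receptors, had 80.2, 88.4 and 86.4 CPM against 79.4, 81.5 and 76.4 CPM. Both Irak1 and Btk overlapped between the groups.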
